A study of Homo sapiens with 12 samples.

Results

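The RNA levels of 10 genes that are transcribed in response to ERK signaling were described in 12 libraries of pancreatic cancer cells: DUSP4, DUSP5, DUSP6, SPRY2, SPRY4, ETV4, ETV5, PHLDA1, IER3 and EGR1. They were chosen by name, and all 10 were found among the 58302 genes of the deposited table. In the MAPK cascade, growth factor receptors act through RAS, RAF and MEK proteins to switch on the ERK kinases. Active ERK induces immediate-early genes within minutes of a stimulus and then a set of inhibitors that shut the cascade down again, so the RNA of these genes is commonly read as a trace of recent ERK activity. Pancreatic ductal adenocarcinoma is known for activating mutations of this pathway. ERK phosphorylation itself was not part of these data.

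There were 4 groups of 3 libraries each. BxPC-3 and CFPAC-1 are human pancreatic cancer lines, and BxPC-3-GR is the gemcitabine (GEM)-resistant form of the former and CFPAC-1-GR that of the latter. Each resistant line was 1 line raised from its parental line by exposure to GEM in rising concentrations with recovery in drug-free medium between steps, and the parental lines were labelled as sensitive. The last GEM concentration differed between the resistant lines, and for CFPAC-1 the medium in the sample records is not the one in the paper's methods. Because there was a single resistant line for each parent, resistance and any other change fixed during selection cannot be told apart. Nothing states that the 3 libraries of a line came from separate cultures, so p values measure only the spread between these libraries.

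Values were FPKM, fragment numbers scaled to gene length and library size. The steps between low values implied 12600000 to 25200000 mapped fragments per library. The 7 ductal epithelial markers summed to 668 to 786 FPKM in the BxPC-3 lines, 2462 to 2609 FPKM in CFPAC-1 and 1046 to 1195 FPKM in CFPAC-1-GR. Keratins made up most of these sums. A mean of 1 FPKM was reached by 6 of the 7 in BxPC-3, 7 in BxPC-3-GR, 6 in CFPAC-1 and 5 in CFPAC-1-GR. CFTR was at a mean of 1.38 FPKM in BxPC-3-GR but 0.0056 in BxPC-3, 0.024 in CFPAC-1 and 0.022 in CFPAC-1-GR. CLDN4 was at 0.43 FPKM in CFPAC-1-GR. The 5 mesenchymal markers summed to 6.30 to 7.999 FPKM in BxPC-3 and 1.67 to 2.12 FPKM in BxPC-3-GR. They summed to 108 to 143 FPKM in CFPAC-1 and 54.4 to 72.5 FPKM in CFPAC-1-GR. In the CFPAC-1 lines this was nearly all VIM, with a mean of 126 FPKM in CFPAC-1 and 57.9 in CFPAC-1-GR. Only 1 of the 5 reached a mean of 1 FPKM in each BxPC-3 line and 2 in each CFPAC-1 line. That 1 was VIM in BxPC-3 (6.59) and COL1A1 in BxPC-3-GR (1.09), where VIM was at 0.81. Taken type by type, blood markers summed to at most 4.59 FPKM in any library, endothelial markers to 0.91 and acinar or endocrine markers to 0.90. The blood markers in the CFPAC-1 lines were nearly all CD14, with a mean of 3.33 FPKM in CFPAC-1 and 3.92 in CFPAC-1-GR. Groups were compared by limma on log2(FPKM + 1). Genes that passed a Benjamini-Hochberg adjusted p of 0.05 are described as higher, lower, risen or fallen, and those that also had an absolute log2 fold change (log2FC) above 1 as significantly differentially expressed (SDE). Because 1 is added before the logarithm, the log2FC of a weakly expressed gene is smaller than its fold change in FPKM.

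The 10 genes did not respond to GEM resistance as a block. In BxPC-3-GR, 4 of them rose against BxPC-3 (DUSP5, ETV4, ETV5 and PHLDA1), where 26.2% of 11710 tested genes rose, and 2 fell (DUSP6 and EGR1), where 31.5% fell. The 6 of 10 that passed the test compare with 57.7% of all genes. Only EGR1 was SDE, and it was downregulated, beside 7.76% SDE genes (4.14% up and 3.62% down). In CFPAC-1-GR, 2 rose against CFPAC-1 (DUSP6 and EGR1), where 44.6% of 12051 genes rose, and 5 fell (DUSP5, SPRY2, SPRY4, ETV4 and ETV5), where 34.9% fell. The 7 of 10 that passed compare with 79.6%. DUSP5 and ETV4 were SDE, both downregulated, beside 32.2% SDE genes (20.5% up and 11.7% down). In these 2 comparisons 8 and 7 members had groups that did not overlap, against 66.1% and 82.1% of all genes. DUSP5, DUSP6, ETV4, ETV5 and EGR1 passed in both lines, and all 5 moved in opposite directions, although in CFPAC-1-GR neither DUSP6 nor EGR1 passed with median-of-ratios scaling, nor DUSP6 with a correction for base composition.

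**Figure D1:**
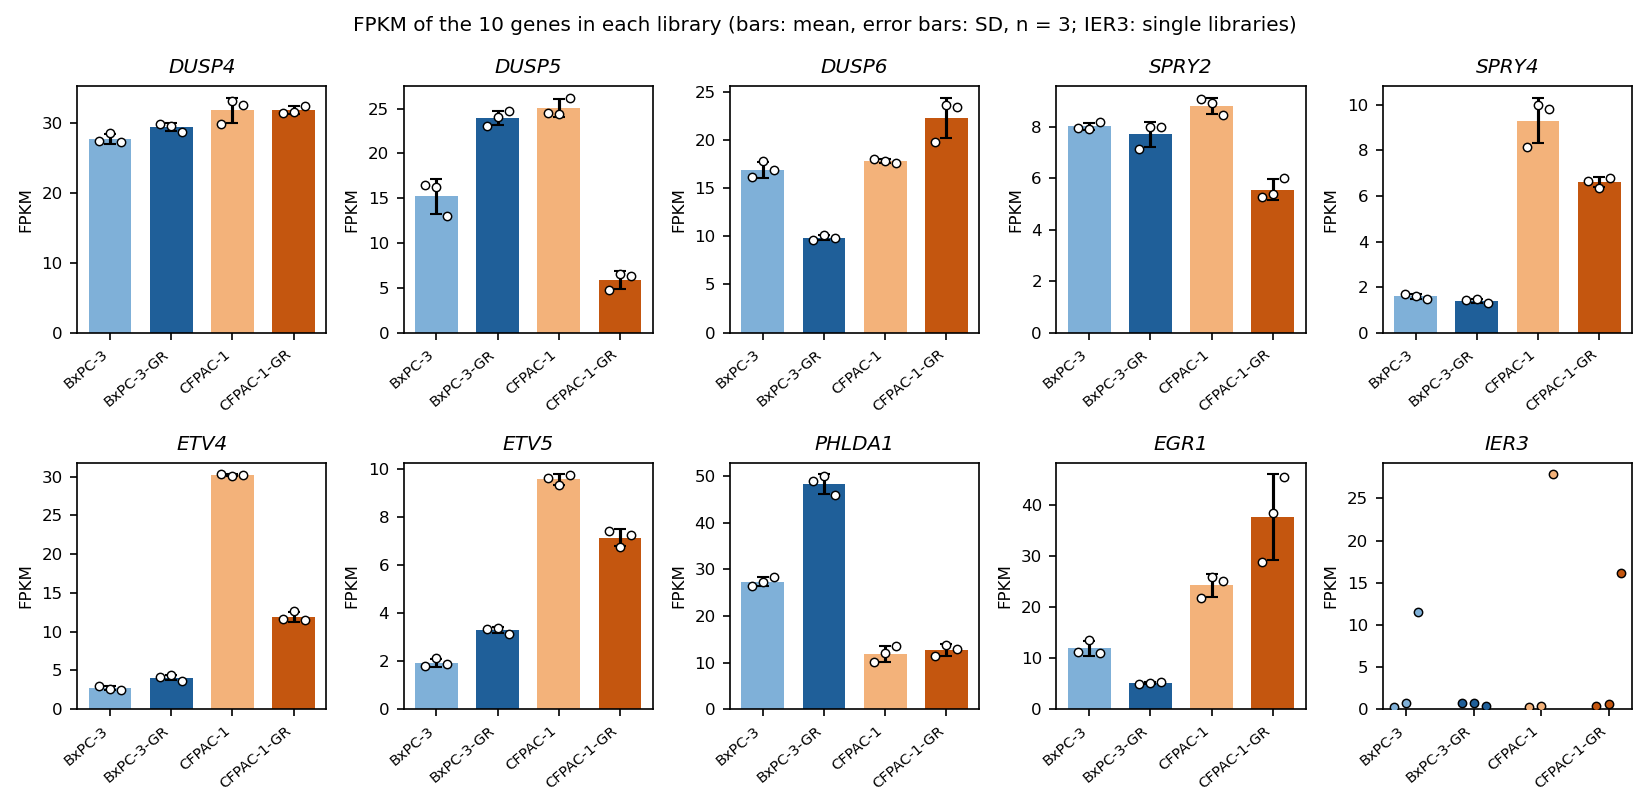
FPKM of each gene in the 12 libraries, 1 panel per gene with its own linear axis from 0. Points are single libraries, bars are group means and error bars are SD (n = 3), and IER3 is shown as single libraries without bars. ETV4, ETV5 and SPRY4 were higher in every CFPAC-1 or CFPAC-1-GR library than in every BxPC-3 or BxPC-3-GR library, PHLDA1 was lower there, and 3 IER3 libraries stand far above the other 9.

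The dual-specificity phosphatases remove phosphate from MAP kinases. DUSP6 is a cytoplasmic phosphatase that prefers ERK, whereas DUSP4 and DUSP5 act in the nucleus, DUSP5 with a strong preference for ERK. DUSP6 (chromosome 12, 89347232 to 89353271 in GRCh38, minus strand) was listed at 16.1, 17.8 and 16.8 FPKM in BxPC-3 and at 9.65, 10.1 and 9.77 FPKM in BxPC-3-GR. In the other line it was listed at 17.98, 17.8 and 17.6 FPKM in CFPAC-1 and at 19.8, 23.6 and 23.4 FPKM in CFPAC-1-GR. The parental lines therefore shared a level of about 17 FPKM, and the resistant groups lay on either side of it without overlap. The mean fell 1.72-fold in BxPC-3-GR, with a log2FC of -0.72 ± 0.05 (SE, n = 3 against 3; limma adjusted p = 0.00012). It rose 1.25-fold in CFPAC-1-GR (log2FC 0.30 ± 0.08; limma adjusted p = 0.013), but this rise was not seen with a GC and length correction (-0.08; limma adjusted p = 0.36) or with median-of-ratios scaling (0.01; limma adjusted p = 0.89).

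DUSP5 (chromosome 10, 110497838 to 110511544, plus strand) had the largest log2FC of any member within a line. It was listed at 24.6, 24.4 and 26.2 FPKM in CFPAC-1 and at only 4.76, 6.57 and 6.34 FPKM in CFPAC-1-GR. The lowest CFPAC-1 library was thus far above the highest CFPAC-1-GR library, and the means differed 4.25-fold. The log2FC was -1.93 ± 0.11 (SE, n = 3 against 3; limma adjusted p = 9.9e-06), and it was -1.34 with the GC and length correction. DUSP5 was SDE in this comparison under every alternative tried. In the BxPC-3 lines the direction was the opposite, with 16.4, 16.3 and 13.0 FPKM in BxPC-3 and 23.1, 24.0 and 24.7 FPKM in BxPC-3-GR. The mean rose 1.57-fold (log2FC 0.63 ± 0.10; limma adjusted p = 0.0021), and the groups did not overlap.

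DUSP4, on chromosome 8, was the steadiest of the members. Its group means were 27.7 ± 0.710 FPKM in BxPC-3, 29.4 ± 0.607 in BxPC-3-GR, 31.8 ± 1.78 in CFPAC-1 and 31.8 ± 0.565 in CFPAC-1-GR (SD, n = 3), a span of 1.15-fold. Neither resistant line passed the test (log2FC 0.08, limma adjusted p = 0.19, in BxPC-3-GR and 0.00, limma adjusted p = 0.99, in CFPAC-1-GR). The 95% confidence interval of the log2FC ran from -0.03 to 0.20 in BxPC-3-GR and from -0.16 to 0.16 in CFPAC-1-GR. With median-of-ratios scaling DUSP4 was 0.29 log2 units lower in CFPAC-1-GR (limma adjusted p = 0.0039), so it was not steady under that scaling.

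Sprouty proteins, the second arm of feedback, restrain signaling between the receptor and RAF. SPRY2 (chromosome 13, 80335976 to 80340951, minus strand) was listed at 9.07, 8.93 and 8.47 FPKM in CFPAC-1 and at 5.28, 5.38 and 6.01 FPKM in CFPAC-1-GR. The groups did not overlap, and the mean fell 1.59-fold (log2FC -0.58 ± 0.07; limma adjusted p = 0.00025). In the BxPC-3 lines its means were 8.02 ± 0.151 and 7.71 ± 0.496 FPKM (SD, n = 3), the groups overlapped, and the difference did not pass the test (limma adjusted p = 0.49; 95% confidence interval of the log2FC -0.19 to 0.09). SPRY4 (chromosome 5, 142310427 to 142326455, minus strand) was listed at 8.16, 9.97 and 9.80 FPKM in CFPAC-1 and at 6.68, 6.37 and 6.78 FPKM in CFPAC-1-GR. It fell 1.41-fold (log2FC -0.43 ± 0.09; limma adjusted p = 0.0031). In the BxPC-3 lines SPRY4 was low throughout, at 1.48 to 1.70 FPKM in BxPC-3 and 1.30 to 1.47 FPKM in BxPC-3-GR, and did not pass the test (log2FC -0.11; limma adjusted p = 0.13). SPRY4 stood for at least about 166 fragments in every library.

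ETV4 and ETV5 are related ETS transcription factors of the PEA3 subfamily, whose RNA rises with receptor tyrosine kinase and ERK signaling. ETV4 (chromosome 17, 43527844 to 43579620, minus strand) was listed at 30.3, 30.1 and 30.2 FPKM in CFPAC-1, at 11.6, 12.7 and 11.5 FPKM in CFPAC-1-GR, at 2.96, 2.64 and 2.53 FPKM in BxPC-3 and at 4.20, 4.35 and 3.69 FPKM in BxPC-3-GR. The 4 groups did not overlap, and the highest and lowest means differed 11.1-fold. From the parental to the resistant lines the levels drew closer to each other. ETV4 fell 2.53-fold in CFPAC-1-GR (log2FC -1.27 ± 0.07; limma adjusted p = 7.3e-06), an SDE change, and rose 1.51-fold in BxPC-3-GR (log2FC 0.45 ± 0.07; limma adjusted p = 0.0027). With values corrected for GC content and length, the fall in CFPAC-1-GR was smaller (-0.47; limma adjusted p = 0.00063) and no longer SDE.

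ETV5 (chromosome 3, 186046308 to 186110318, minus strand) had the same order of groups. Its means were 9.57 ± 0.218 FPKM in CFPAC-1, 7.15 ± 0.363 in CFPAC-1-GR, 3.29 ± 0.124 in BxPC-3-GR and 1.93 ± 0.177 in BxPC-3 (SD, n = 3), again with no overlap. It fell 1.34-fold in CFPAC-1-GR (log2FC -0.38 ± 0.07; limma adjusted p = 0.0015) and rose 1.70-fold in BxPC-3-GR (log2FC 0.55 ± 0.06; limma adjusted p = 0.00054). Neither change was SDE.

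EGR1, a zinc finger transcription factor and a classical immediate-early gene, is switched on by ELK1 and serum response factor (SRF). SRF binds CArG boxes, written CC, then 6 bases that are each A or T, then GG. The 250 bases before the EGR1 start in RefSeq (GRCh38.p14, chr5:138465229-138465478, plus strand, with no annotated exon) are shown because they hold 2 such boxes, given in capitals. They begin 105 and 83 bases before the start.
EGR1 upstream: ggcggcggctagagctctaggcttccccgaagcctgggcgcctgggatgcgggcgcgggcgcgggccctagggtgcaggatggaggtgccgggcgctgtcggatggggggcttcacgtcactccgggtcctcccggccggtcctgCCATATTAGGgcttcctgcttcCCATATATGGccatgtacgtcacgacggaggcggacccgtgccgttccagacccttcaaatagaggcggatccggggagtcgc
On either strand, a CArG box was in 1.16% of the 35116 RefSeq windows of this length. RefSeq windows were searched for 5 of the 10 members, and no CArG box was in those of DUSP6, SPRY2, SPRY4 and PHLDA1. The other members were not searched, so the result does not cover them. Unlike the EGR1 window, those of DUSP6, SPRY4 and PHLDA1 overlap annotated exons of the same gene. Some SPRY2 windows lie inside the SPRY2 gene, outside its annotated exons. None of TGANTCA, TGACGTCA, CCGGAAGT and GCGTGGGCG, in 6.57%, 1.65%, 3.42% and 0.720% of all windows, was in any of the 5. These matches describe letters in a window only.

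The EGR1 gene lies on chromosome 5 (138465490 to 138469315, plus strand). It was listed at 11.2, 13.6 and 11.05 FPKM in BxPC-3 and at 4.94, 5.16 and 5.25 FPKM in BxPC-3-GR. All 3 resistant libraries lay below all parental ones, and the mean fell 2.33-fold. The log2FC of -1.07 ± 0.09 (SE, n = 3 against 3; limma adjusted p = 0.00014) made EGR1 the only member that was SDE in BxPC-3-GR. That call was close to the threshold: without BxPC-3 replicate 2, the highest of its group, the log2FC was -0.98. In CFPAC-1 EGR1 was listed at 21.8, 25.9 and 25.2 FPKM and in CFPAC-1-GR at 28.96, 38.6 and 45.6 FPKM. The resistant libraries were again apart from the parental ones, this time above them, but with an SD of 8.37 FPKM. The mean rose 1.55-fold (log2FC 0.59 ± 0.17; limma adjusted p = 0.013), below the SDE limit. With values corrected for GC content and length, the log2FC was 1.09 (limma adjusted p = 0.0014), and with median-of-ratios scaling it was 0.30 and did not pass (limma adjusted p = 0.11).

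PHLDA1, a pleckstrin homology-like domain protein induced by ERK signaling, was the member that separated the lines in the other direction. It lies on chromosome 12 (76025447 to 76033932, minus strand). PHLDA1 was listed at 26.4, 27.3 and 28.4 FPKM in BxPC-3 and at 48.9, 50.1 and 46.1 FPKM in BxPC-3-GR. It rose 1.77-fold there (log2FC 0.80 ± 0.06; limma adjusted p = 9.4e-05), with no overlap. In CFPAC-1 and CFPAC-1-GR its means were 11.9 ± 1.73 and 12.7 ± 1.22 FPKM (SD, n = 3), the groups overlapped, and the difference did not pass the test (log2FC 0.10; limma adjusted p = 0.49; 95% confidence interval -0.19 to 0.38). With the GC and length correction PHLDA1 fell in CFPAC-1-GR (-0.72; limma adjusted p = 0.0023).

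IER3, an early response gene that affects survival and ERK dephosphorylation, could not be compared between groups. It lies on chromosome 6 (30743199 to 30744554, minus strand). IER3 was listed at 0.200, 0.707 and 11.5 FPKM in BxPC-3, at 0.674, 0.714 and 0.404 FPKM in BxPC-3-GR, at 0.278, 0.428 and 27.9 FPKM in CFPAC-1 and at 0.389, 0.608 and 16.1 FPKM in CFPAC-1-GR. In 3 of the 4 groups the library numbered 3 was far above the other libraries of its own group, and the other 9 libraries lay below 1 FPKM. Among 12210 genes that averaged 1 FPKM or more, 3 genes were higher in these 3 libraries than in the other 9, and IER3 had the widest gap. The 3 libraries were picked by their IER3 values, and IER3 reached that average only through them. Its rank is therefore a description and no test. Limma gave a log2FC of -0.89 (95% confidence interval -2.96 to 1.18; limma adjusted p = 0.41) in BxPC-3-GR and of -0.15 (-3.63 to 3.32; limma adjusted p = 0.93) in CFPAC-1-GR. The table was also unusual around this gene. Of 31 protein-coding genes within 500 kb on either side, 10 were listed at 0 in all 12 libraries, including TUBB, a tubulin gene, and MDC1, a DNA damage response gene, and 24 stayed below 1 FPKM in all. An antisense gene, IER3-AS1, overlaps IER3, and whether the counting used strand is not given in the sources used here. The part of any of these in the IER3 values was not tested.

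The median log2FC of the 10 was 0.02 in BxPC-3-GR, beside -0.05 over all genes tested, and -0.27 in CFPAC-1-GR, beside 0.13 over all genes. Median-of-ratios scaling moved that all-gene median in CFPAC-1-GR from 0.13 to -0.11 and turned 2473 upregulated and 1407 downregulated SDE genes into 1746 and 2285.

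**Figure D2:**
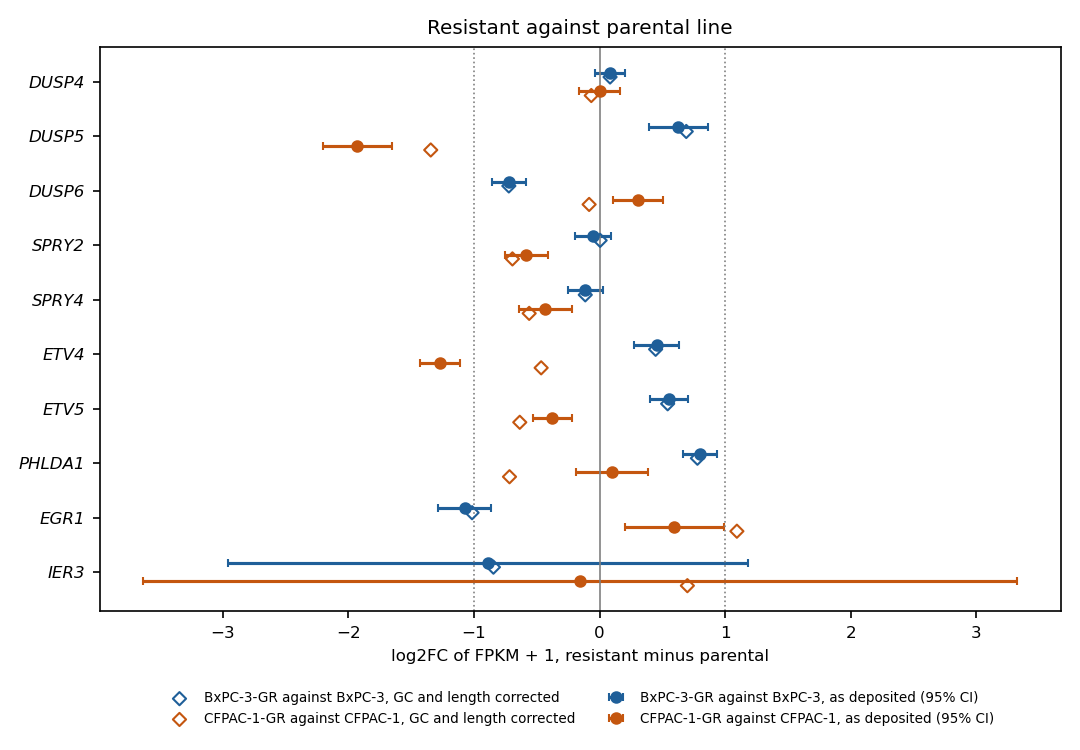
The log2FC of FPKM + 1, resistant minus parental, for each member in both lines. Filled points are values as deposited with 95% confidence intervals, open diamonds are values corrected for GC content and length, and dotted lines mark a log2FC of -1 and 1. DUSP5, ETV4 and ETV5 lie right of 0 in BxPC-3-GR and left of 0 in CFPAC-1-GR, EGR1 the reverse, and the IER3 intervals run across 0 by more than 1 unit on each side.

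The opposite directions were tested as a difference of response, the log2FC in BxPC-3-GR minus that in CFPAC-1-GR, over all 12 libraries. DUSP5 had the largest difference, 2.56 ± 0.16 (SE; limma adjusted p = 9.9e-08), followed by ETV4 with 1.73 ± 0.09 (limma adjusted p = 4.6e-08). Both were higher relative to the parent in BxPC-3-GR than in CFPAC-1-GR. EGR1 (-1.67 ± 0.20; limma adjusted p = 1.8e-05) and DUSP6 (-1.02 ± 0.10; limma adjusted p = 2.6e-06) differed the other way. These 4 of 10 members met the SDE criteria, 2 in each direction, where 38% of 12210 genes did (14.4% up and 23.6% down). DUSP6 was close to the limit, at -0.99 without BxPC-3 replicate 2, -0.98 without CFPAC-1-GR replicate 2 and -0.99 without CFPAC-1-GR replicate 3, and ETV4 (0.89) and DUSP6 (-0.64) no longer met it with the GC and length correction. ETV5 (0.93), PHLDA1 (0.70), SPRY2 (0.53) and SPRY4 (0.32) passed the adjusted p without reaching a difference of 1, so that 8 of 10 passed, beside 76.6% of all genes. DUSP4 (0.08; limma adjusted p = 0.34) and IER3 (-0.73; limma adjusted p = 0.74) did not pass.

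Opposite movement was frequent in the table at large. Of 5048 genes that passed the adjusted p in both lines, 2642, or 52.3%, moved in opposite directions, beside 5 of 5 members. With the GC and length correction, 5 members passed in both lines and again all 5 were opposite (DUSP5, ETV4, ETV5, EGR1 and PHLDA1), where 48.6% of 3913 genes were. With median-of-ratios scaling 3 members passed in both lines, all opposite (DUSP5, ETV4 and ETV5), where 51.2% of 4986 genes were. DUSP5, ETV4 and ETV5 were thus opposite under all 3 treatments of the values.

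The lines themselves differed at these genes more than resistance did for the ETS factors and SPRY4. Between the parental lines, ETV4 was 11.1-fold, SPRY4 5.84-fold and ETV5 4.95-fold lower in BxPC-3 than in CFPAC-1, and PHLDA1 was 2.30-fold higher. The log2FC, BxPC-3 minus CFPAC-1, was -3.07 ± 0.06 for ETV4 (limma adjusted p = 1.2e-07), -1.99 ± 0.09 for SPRY4 (limma adjusted p = 1.4e-06), -1.85 ± 0.06 for ETV5 (limma adjusted p = 5.6e-07) and 1.15 ± 0.10 for PHLDA1 (limma adjusted p = 5.3e-05). These were the 4 of 10 members that were SDE, where 44.5% of 11842 genes were (24.7% higher and 19.8% lower in BxPC-3). EGR1 (2.04-fold), DUSP5 (1.65-fold) and DUSP4 (1.15-fold) were also lower in BxPC-3, below the SDE limit, and DUSP6, SPRY2 and IER3 did not pass, so that 7 of 10 passed the adjusted p, beside 84.2% of all genes. With the GC and length correction, PHLDA1 was 0.36 higher and no longer SDE, and DUSP5 was 0.08 higher rather than lower (limma adjusted p = 0.41).

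Between the resistant lines 6 of 10 members were SDE, 2 higher and 4 lower in BxPC-3-GR, where 17.1% of 12330 genes were (6.8% higher and 10.3% lower). EGR1 was 7.37-fold lower in BxPC-3-GR than in CFPAC-1-GR (log2FC -2.64 ± 0.16; limma adjusted p = 1.3e-05), the largest log2FC of the 10 in this comparison. SPRY4 was 4.73-fold, ETV4 2.92-fold and DUSP6 2.26-fold lower, and DUSP5 was 4.06-fold and PHLDA1 3.81-fold higher in BxPC-3-GR. ETV5 (2.17-fold lower) and SPRY2 (1.39-fold higher) passed the adjusted p alone, which made 8 of 10 beside 65.3% of all genes. DUSP6 was the only one of the 6 that was no longer SDE with the correction (-0.97) or with median-of-ratios scaling (-0.93). ETV4 and ETV5 kept the direction seen between the parents with a smaller gap, and the gap of DUSP5 changed sign. This comparison and the parental one share no library, but the interaction term uses all of them.

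**Figure D3:**
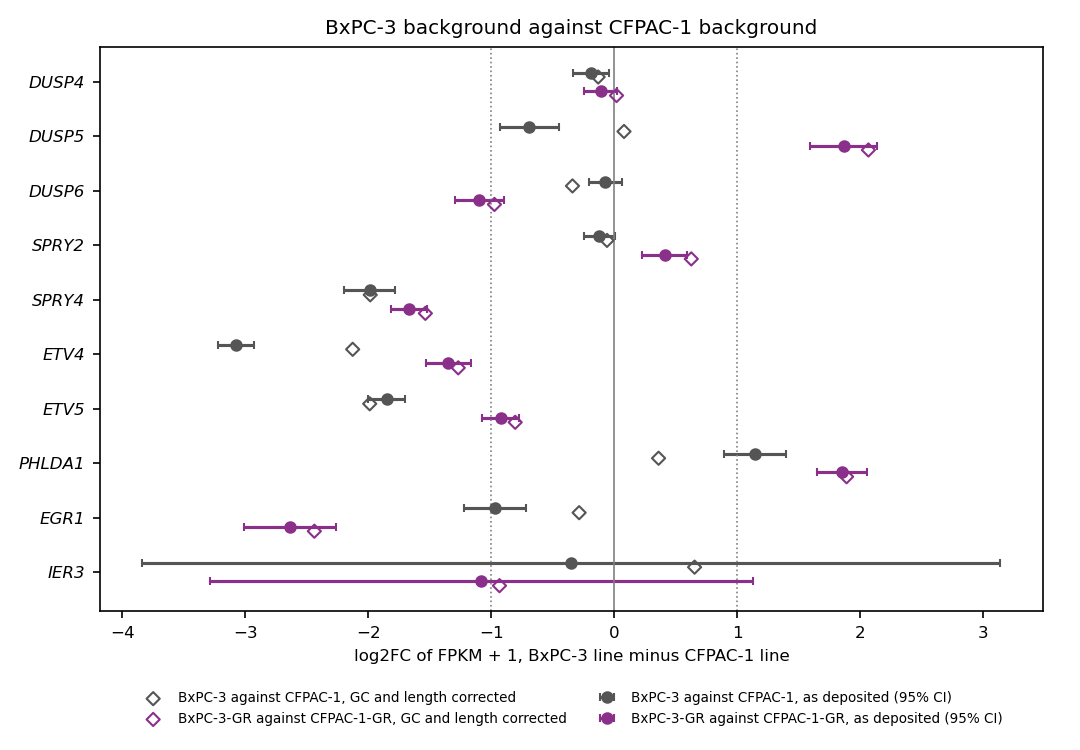
The log2FC of FPKM + 1, BxPC-3 line minus CFPAC-1 line, for each member between the parental lines and between the resistant lines. Filled points are values as deposited with 95% confidence intervals, and open diamonds are values corrected for GC content and length. SPRY4, ETV4 and ETV5 lie left of 0 and PHLDA1 right of 0 in both comparisons, and DUSP5 as deposited lies left of 0 between the parents, where its corrected value is at 0.08, and right of 0 between the resistant lines.

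Values in the CFPAC-1 lines moved with base composition. Over the tested genes, the log2FC of CFPAC-1-GR fell as GC content rose (Spearman -0.78, across genes that are no independent replicates). The same measure was 0.04 in BxPC-3-GR, -0.63 between the parents and 0.02 between the resistant lines. The GC content of the longest transcript of the members ran from 44.3% for PHLDA1 and 46.7% for DUSP6 to 58.5% for IER3 and 60.8% for ETV4, around a median of 49.2% for the tested genes. In CFPAC-1-GR, DUSP5 at 55.9% GC lay low and EGR1 at 55.4% GC lay high among genes of like composition. With the correction these 2 members were the SDE ones, DUSP5 at -1.34 and EGR1 at 1.09, in place of DUSP5 and ETV4, where 8.66% of genes were SDE. Whether the trend arose in the libraries or in the cells was not tested.

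**Figure D4:**
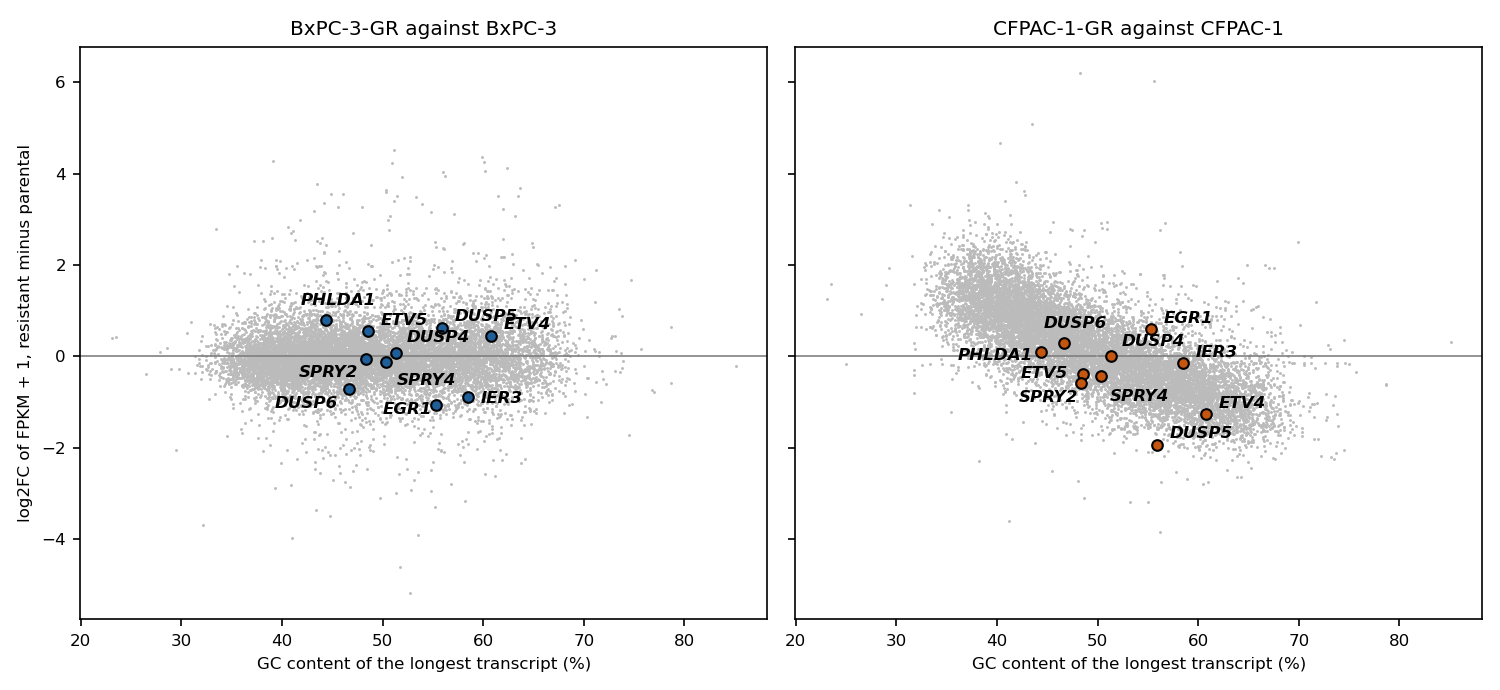
The log2FC of FPKM + 1, resistant minus parental, against the GC content of the longest transcript (%), for all tested genes in grey and the members as labelled points. In BxPC-3-GR the grey cloud is level, and in CFPAC-1-GR it slopes down from left to right, with DUSP5 under it and EGR1 at its upper edge.

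The cascade that feeds these genes showed the same dependence. The list of 20 genes held RAS, RAF, MEK, ERK, their adaptors and their regulators, including RASA1 and RASA2, which switch RAS off. Of the 20, 19 were tested. In BxPC-3-GR 8 rose, beside 26.2% of all genes, 4 fell, beside 31.5%, and none was SDE by limma, beside 7.76%. The same 12 had an unadjusted p below 0.05. MAPK3, which encodes ERK1, was listed at a mean of 6.84 ± 0.537 FPKM in BxPC-3-GR against 3.80 ± 0.067 in BxPC-3 (SD, n = 3; log2FC 0.71; limma adjusted p = 0.00022). BRAF, a RAF kinase, rose slightly (log2FC 0.20; limma adjusted p = 0.038). In CFPAC-1-GR 11 of the 19 were SDE and upregulated, beside 20.5% of all genes, and 3 SDE and downregulated, beside 11.7%. RASA1 (2.17), PTPN11 (2.14) and RASA2 (2.10) had the largest log2FC, and BRAF (1.68) was also SDE. MAP2K2 (-1.36), ARAF (-1.19) and MAPK3 (-1.18) fell. Their GC content was 40.03% for BRAF on one side and 61.4% for MAPK3 and 60.9% for MAP2K2 on the other. With the GC and length correction 3 of the 19 were SDE, all upregulated, where 8.66% of all genes were SDE. PTPN11 and RASA1 kept their calls, and HRAS was SDE with the correction alone. Between the resistant lines none of the 19 was SDE by limma, beside 17.1% of all genes. There 5 were higher and 6 lower in BxPC-3-GR, where 65.3% of all genes passed in either direction, and 12 had an unadjusted p below 0.05. With the correction NRAS (1.07) was SDE there.

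Other inhibitors of the pathway were tested for 8 of 15 genes in BxPC-3-GR and 11 of 15 in CFPAC-1-GR. In BxPC-3-GR ERRFI1, an inhibitor of the EGF receptor, rose (27.7 ± 2.90 against 10.7 ± 1.16 FPKM; log2FC 1.30; limma adjusted p = 0.00015), and DUSP7, a phosphatase of the same cytoplasmic group as DUSP6, fell (12.7 ± 1.07 against 35.3 ± 2.07 FPKM; log2FC -1.41; limma adjusted p = 4e-05). These were the SDE genes of the 8, 1 up beside 4.14% of all genes and 1 down beside 3.62%. Both calls were kept with the correction and with median-of-ratios scaling. By adjusted p, 3 of the 8 rose, beside 26.2% of all genes, and 2 fell, beside 31.5%. In CFPAC-1-GR 4 of the 11 rose by adjusted p, beside 44.6% of all genes, and 3 fell, beside 34.9%. SPRED1 (1.57) and RASAL2 (1.20) were SDE and upregulated there, beside 20.5% of all genes, and none was SDE and downregulated, beside 11.7%. Neither SPRED1 nor RASAL2 was SDE with the correction (0.27 and -0.12).

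Of 24 other immediate-early genes, 13 were tested in the BxPC-3 lines and 16 in the CFPAC-1 lines. FOSL1, the AP-1 factor FRA-1, was SDE and downregulated in both resistant lines. It was listed at a mean of 8.12 ± 2.81 FPKM in BxPC-3-GR against 30.7 ± 2.80 in BxPC-3 (log2FC -1.85 ± 0.25; limma adjusted p = 0.0011). In CFPAC-1-GR it was at 19.8 ± 1.63 FPKM against 85.3 ± 12.4 in CFPAC-1 (SD, n = 3; log2FC -2.05 ± 0.12; limma adjusted p = 1e-05). With the correction FOSL1 stayed SDE in both, at -1.82 and -1.14. It was the only SDE gene of the 13 tested in BxPC-3-GR, beside 7.76% of all genes. By adjusted p, 6 of these 13 rose, beside 26.2% of all genes, and 2 fell, beside 31.5%. Of the 16 tested in CFPAC-1-GR, 3 rose, beside 44.6%, and 9 fell, beside 34.9%. In CFPAC-1-GR 4 more of the 16, led by IER2 (-1.71) and KLF2 (-1.49), were SDE and downregulated, where 11.7% of all genes were, and none of these 4 was SDE by limma with the correction.

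Of 20 other transcriptional outputs of ERK and ETS factors, 17 were tested in each line. In BxPC-3-GR the epithelial ETS factor ELF3 was SDE and upregulated (24.9 ± 2.88 against 3.96 ± 0.219 FPKM; log2FC 2.38; limma adjusted p = 1.1e-05). A further 4 of the 17 were SDE and downregulated, beside 3.62% of all genes, led by ERF, an ETS repressor that ERK exports from the nucleus (-1.51), PLAUR (-1.28) and UPP1 (-1.15). By adjusted p, 3 of the 17 rose, beside 26.2% of all genes, and 9 fell, beside 31.5%. In CFPAC-1-GR 3 were SDE and upregulated, ELK4 (2.10), ELK3 (1.72) and TFPI2 (1.01), beside 20.5% of all genes, and 6 SDE and downregulated, beside 11.7%, led by TNFRSF12A (-1.64), EPHA2 (-1.51) and IER5L (-1.29). With the correction UPP1 (-1.12) was the only one of the 17 that was SDE in CFPAC-1-GR, beside 8.66% of all genes. Among 6 heat-shock genes, which respond to stress of cells, none was SDE in BxPC-3-GR by limma, beside 7.76% of all genes. There 3 rose, beside 26.2%, and 2 fell, beside 31.5%, also by unadjusted p. In CFPAC-1-GR 1 of the 6 rose by adjusted p, beside 44.6% of all genes, and 4 fell, beside 34.9%. The one that rose, HSPH1 (1.29), was also SDE, beside 20.5% of all genes SDE and upregulated. With the correction none of the 6 was SDE there, 2 rose and none fell by adjusted p.

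The members did not share one pattern over the 12 libraries, which fall into 4 groups, so that correlations mostly reflect group means. ETV4 and ETV5 had a Pearson r of 0.97 on log2(FPKM + 1), SPRY4 had 0.96 with ETV4 and 0.95 with ETV5, and DUSP6 had 0.95 with EGR1. DUSP5 was nearest to SPRY2 (0.90), and PHLDA1 ran against EGR1 (-0.94) and SPRY4 (-0.93). DUSP5 and DUSP6, which share a substrate, had -0.66. Outside the members, the 5 of 10227 protein-coding genes most like DUSP6 were MINOS1 (0.98), HNRNPF (0.97), FSTL1 (0.97), FOXQ1 (0.97) and SEPHS2 (0.97).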

How the data were processed

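The authors deposited FPKM values for 58302 genes in 12 libraries, made with GRCh38 and an Ensembl annotation. The submitters' processing notes name Trimmomatic 0.27, FastQC 0.10.1 and TopHat2 2.0.8, with hg19 beside GRCh38. The program that counted fragments is not given in the sources used here. The paper's methods name DESeq2. FPKM are not counts, so limma 3.58.1 in R 4.3.3 was used on log2(FPKM + 1), as the plan named for that case. Genes that averaged 1 FPKM or more over a fit's libraries were tested, and p values were adjusted over all of them. The interaction used all 12 libraries. With 3 libraries against 3, an exact permutation test of a single gene cannot go below p = 0.10.

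Positions, types, lengths and GC content were taken from GENCODE release 29, where 58039 genes were found. For the motif search, no RefSeq window was at hand for DUSP5, ETV4, ETV5 and IER3, and DUSP4 was left out of the search. The correction subtracted from each log ratio a natural spline on GC content and log length with 5 degrees of freedom each. Implied depth was read from the steps between low values, of which 54.7% to 66.6% were whole multiples within 0.05. It limits IER3 most, with 5 to 485 fragments per library. The procedure was tested on simulated data.

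The 10 members, the other gene lists and the tests were chosen with earlier results of these data known. Named genes were all members, BRAF, MAPK3 and 2 further cascade genes that are not reported here, up to 3 SDE genes per list and direction, and the 5 genes most like DUSP6. HRAS, NRAS, EGR1's promoter and the genes near IER3 were named after their values were seen. Alternatives were a pseudocount of 0.1, no filter, other scalings, the correction, a replicate block, 1 fit of all libraries, a test against a log2FC of 1, and each library left out. IER3 without the libraries numbered 3 and its neighbouring genes were added after the values were seen. Figures were drawn with matplotlib 3.10.9 in Python 3.11.15.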

Additional observations from a re-analysis of the deposited data

Results flagged for a closer look

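For 4 members the response to resistance differed between the lines by the interaction test with an absolute difference above 1. The log2FC in BxPC-3-GR minus that in CFPAC-1-GR was 2.56 for DUSP5, 1.73 for ETV4, -1.67 for EGR1 and -1.02 for DUSP6. DUSP5 and EGR1 kept a difference above 1 with the GC and length correction (2.02 and -2.13), whereas ETV4 (0.89) and DUSP6 (-0.64) did not. With the same correction ETV5 (1.18) and PHLDA1 (1.48) were above 1 as well, and with median-of-ratios scaling they were at 1.24 and 1.04. Groups of 3 were too small for the test of outlying libraries, so the IER3 libraries numbered 3 were not tested in that way.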

How the results depend on the processing

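Of 898 values of single members under the alternatives, 831 kept their direction and their side of the SDE criteria and 32 changed sign, 14 of them IER3. In BxPC-3-GR the count of SDE members, 1 as reported, was 0 when limma tested log2FC against 1 (0 also at an unadjusted p of 0.05), and it ran from 0 to 1 when single libraries were left out. SPRY2 in BxPC-3-GR was at 0.0038 with the GC and length correction, alone or with the block. In CFPAC-1-GR the same correction gave -0.067 for DUSP4, -0.084 for DUSP6, -0.72 for PHLDA1 and 0.70 for IER3, also with the block. Median-of-ratios scaling gave -0.29 for DUSP4 and -0.19 for PHLDA1, and a pseudocount of 0.1 gave 0.0023 for IER3. Leaving out single libraries there gave -0.044 to 0.030 for DUSP4, -0.0096 to 0.19 for PHLDA1 and -1.33 to 1.32 for IER3. Between the parents the correction gave 0.080 for DUSP5 and 0.65 for IER3, with or without the block, and IER3 ran from -1.39 to 1.12 without single libraries. Between the resistant lines DUSP4 was at 0.066 with median-of-ratios scaling and at 0.019 with the correction, with or without the block. The IER3 difference of response ran from -2.21 to 0.44 without single libraries. Without the libraries numbered 3, IER3 had a mean under 1 FPKM and was not tested. The cause of these changes was not tested.

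The replicate numbers gave no clear pairing of the samples: correlations of same-numbered libraries lay between -0.14 and 0.10. Between the resistant lines the best match was the same-numbered library at every number (0.045, 0.068 and 0.021). In CFPAC-1-GR against CFPAC-1 it was so at no number, and the other comparisons were mixed. With the replicate block the counts of SDE members were 1, 2, 4, 6 and 4, as without it, and 0 of 50 calls changed.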
